A study of Mus musculus with 4 samples.

Results

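Open chromatin was examined at 10 genes for chemokine signalling, vessel guidance and arterial signalling, Cxcl12, Pdgfb, Dkk2, Mgp, Sema3g, Cxcr4, Ackr3, Unc5b, Plxnd1 and Bmx, in endothelial cells sorted from mouse lung. Knockout of Dnmt3a (KO, 2 libraries) was set against wild type (WT, 2 libraries). The gene encodes an enzyme that adds new methyl groups to DNA, mainly at CG pairs. Strain, age, sex and the way in which the gene was deleted were not given in the labels used here, and neither was the number of mice behind a library. Each library was an ATAC-seq peak list, that is, the places where a transposase could cut the DNA, with positions and widths but no scores or read counts. A peak was taken for a gene where it overlapped the mm10 span of the gene or 10 kb on either side, and peaks of the 4 lists that overlapped by at least 1 bp were joined into 1 merged region. This gave 92 of the 113056 merged regions of the series, at 10 of 21887 protein-coding genes, and the rule takes regions by position alone.

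CXCL12 is a chemokine that guides cells through its receptor CXCR4, and ACKR3 is an atypical receptor that binds and removes CXCL12. Semaphorins and netrins are guidance cues that steer growing axons and vessels through plexin and UNC5 receptors, and PDGF-B from the endothelium draws pericytes onto new vessels. Several of these genes are known as markers of arterial endothelium, and Mgp and Cxcl12 are also made by other cells of the vessel wall and stroma.

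The start sites of these genes ranged from CG-rich to CG-poor. The 250 bases before the start site are shown for Unc5b (27 pairs, the most) and Bmx (4 pairs, the fewest). They are also shown for Ackr3 and Dkk2 (7 pairs each). Ackr3 had the wider of the regions listed in both KO lists and no WT list, which lay outside these bases. Dkk2 had the largest width difference of the regions called in all 4 lists. The median over 32851 promoters of the RefSeq table (GRCm38.p6) was 6 pairs. The capitals mark the CG pairs.
Unc5b (chr10:60831582-60831831, minus strand): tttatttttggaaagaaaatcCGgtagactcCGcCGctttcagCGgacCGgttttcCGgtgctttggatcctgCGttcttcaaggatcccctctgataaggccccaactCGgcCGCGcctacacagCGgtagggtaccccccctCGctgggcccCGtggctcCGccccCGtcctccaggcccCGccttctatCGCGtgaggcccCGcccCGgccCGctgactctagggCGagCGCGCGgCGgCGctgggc
Bmx (chrX:164258194-164258443, minus strand): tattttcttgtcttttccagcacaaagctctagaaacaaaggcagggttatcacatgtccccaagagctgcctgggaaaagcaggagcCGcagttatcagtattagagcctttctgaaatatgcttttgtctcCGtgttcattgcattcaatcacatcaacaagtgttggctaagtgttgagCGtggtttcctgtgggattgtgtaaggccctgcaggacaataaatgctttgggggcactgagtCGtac
Ackr3 (chr1:90203730-90203979, plus strand): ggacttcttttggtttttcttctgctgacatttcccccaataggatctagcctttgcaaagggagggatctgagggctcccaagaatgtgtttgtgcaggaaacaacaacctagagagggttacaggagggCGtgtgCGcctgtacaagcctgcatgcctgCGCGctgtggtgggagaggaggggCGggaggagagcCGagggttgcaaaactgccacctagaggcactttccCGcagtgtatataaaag
Dkk2 (chr3:132085042-132085291, plus strand): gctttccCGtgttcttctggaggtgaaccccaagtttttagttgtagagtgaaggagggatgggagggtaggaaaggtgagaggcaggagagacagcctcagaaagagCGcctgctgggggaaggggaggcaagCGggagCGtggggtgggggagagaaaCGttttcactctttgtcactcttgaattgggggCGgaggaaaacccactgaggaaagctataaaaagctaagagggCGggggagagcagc
Peaks of all 4 lists covered the whole sequence at Unc5b, Bmx and Ackr3. At Dkk2 the KO lists covered 0 and 0 of these bases and the WT lists 73 and 71. The promoters of Cxcl12, Sema3g, Cxcr4 and Plxnd1, with 14, 8, 19 and 16 CG pairs, were also covered in full by every list. Pdgfb and Mgp had no entry in the promoter table.

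Short motifs were counted in the same 250 bases of the 8 promoters, on both strands and without regard to overlap with other motifs. The ETS core GGAA occurred in all 8 promoters (1 to 5 matches each) and in 93.4% of all promoters. The KLF motif CACCC occurred in Cxcl12, Dkk2, Sema3g and Cxcr4, against 52.0% of all promoters, and the RBPJ motif TGGGAA in Cxcl12 and Bmx, against 21.6%. The E-box CANNTG was found in Sema3g and Bmx, against 66.2% of all promoters. The forkhead motif GTAAACA, the SOX motif ACAATG, the AP-1 motif TGANTCA and the HIF motif ACGTG were in none of the 8, against 3.17%, 10.7%, 6.75% and 16.6% of all promoters.

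The libraries differed in the length of their lists, which bears on every count below. The lists held 85091 and 100879 peaks in KO and 101442 and 97627 peaks in WT on chromosomes 1 to 19, X and Y. All 14 pan-endothelial markers had a peak at a gene end (1000 bp or less from it) in every library, and so did all 8 arterial markers checked. Of 12 markers each, mural genes had such a peak at 9 and 10 in KO against 11 and 10 in WT, fibroblast genes at 6 and 8 against 6 and 5, epithelial genes at 7 and 8 against 9 and 8, and leukocyte genes at 2 and 2 against 3 and 2. Counted over the genes and 10 kb on either side, mural genes had 43 and 51 peaks in KO against 50 and 52 in WT. Fibroblast genes had 52 and 67 against 63 and 58, and epithelial genes 35 and 42 against 43 and 42. Leukocyte genes had 26 and 27 against 28 and 27. Pan-endothelial genes had 147 and 173 against 179 and 163, and arterial genes 54 and 69 against 66 and 65. KO replicate 1 had the fewest peaks in each of these marker lists. The fibroblast genes Col3a1, Dcn, Dpt and Lum had no peak at a gene end in any library. Neither did the leukocyte genes Ptprc, Cd3e and Csf1r or the epithelial gene Nkx2-1. The part of other cells in the results was not tested. In such bulk lists, fewer cells of a type and less accessible chromatin per cell cannot be told apart. The Dnmt3a gene held 15 and 20 peaks in KO and 19 and 18 in WT, and peak positions gave no check of the deletion. Of 5 Y-linked genes, 4 and 0 had a peak at a gene end in KO and 3 and 4 in WT, and Xist had one in KO replicate 2 alone. KO replicate 2 therefore stood apart at the sex-linked genes, which touches Bmx on the X chromosome.

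Most regions at these genes were open in every library. Of the 92 regions, 60 (65.2%) were called in all 4 lists, against 66.7% of all merged regions, and 60 lay inside a gene span. A peak lay at or near the start site (at a gene end for Pdgfb and Mgp), 1000 bp or less from it, at all 10 genes in all 4 libraries. The 10 genes together had 64 and 94 peaks in KO and 80 and 82 peaks in WT, means of 79 ± 21.2 and 81 ± 1.41 (SD, n = 2 each; two-sided exact permutation p = 1). Summed widths were 40389 and 45405 bp in KO and 44467 and 44841 bp in WT (42897 ± 3547 and 44654 ± 264 bp, SD, n = 2 each; two-sided exact permutation p = 1). With 2 against 2 libraries no p under 0.333 was possible. The KO libraries lay below and above the WT libraries in both measures, so the groups overlapped. As shares of each list's peaks, the genes had 0.0752% and 0.0932% in KO and 0.0789% and 0.0840% in WT. As shares of its covered bases, they had 0.0866% and 0.0950% in KO and 0.0870% and 0.0888% in WT. In both shares the groups overlapped and the KO mean lay above the WT mean, opposite to the totals. Without KO replicate 1 the differences in the totals turned to 13 more peaks and 751 bp more in KO.

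The genes were dense in open regions but unequal. The median was 1.75 regions per 10 kb of window, against 0.672 over all protein-coding genes. Pdgfb had 3.49 per 10 kb and ranked at percentile 99.7 of protein-coding genes, followed by Plxnd1 with 2.97, Ackr3 with 2.84 and Unc5b with 2.02. Mgp, with 0.428, and Dkk2, with 0.608, lay below the median of all genes. The plot of calls by gene shows Unc5b and Plxnd1 with 18 regions each and Mgp with 1.

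**Figure D1:**
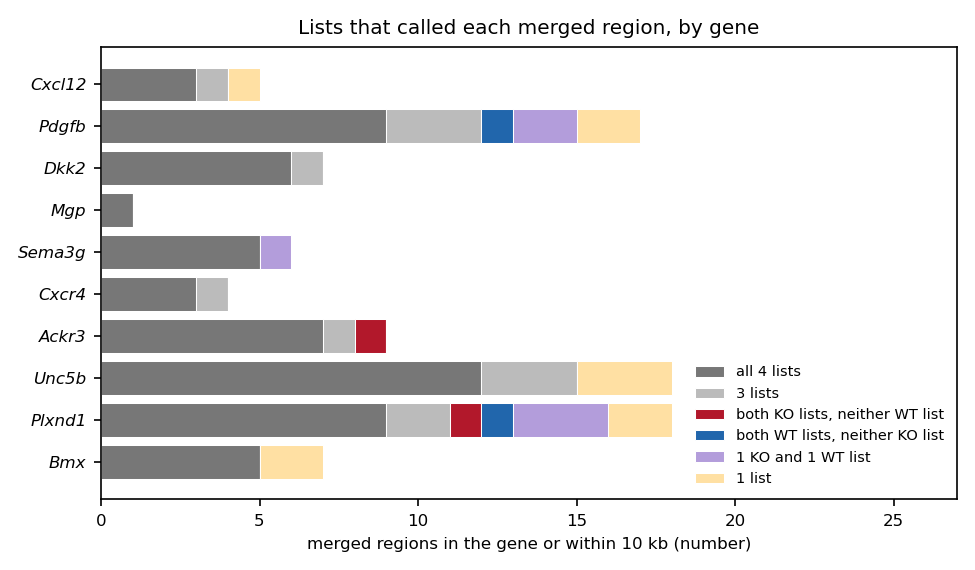
Merged regions at each gene (bar length, number of regions in the gene or within 10 kb), coloured by the lists that called them. Regions of all 4 lists make up 60 of the 92, and the regions called in both lists of 1 genotype alone, 2 for KO and 2 for WT, lie at Ackr3, Plxnd1 and Pdgfb.

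KO replicate 1 stood apart among the regions that were not called in every list. Of the 32 such regions, KO replicate 1 called 3 and KO replicate 2 called 28, against 17 in WT replicate 1 and 18 in WT replicate 2. As shares, these genes had 9.38% and 87.5% in KO and 53.1% and 56.2% in WT, against 22.9% and 55.6% in KO and 61.4% and 53.1% in WT over the whole genome. Of 12 regions called in 3 lists, 11 lacked KO replicate 1 (12.0% of the 92, against 7.59% of all regions) and 1 lacked WT replicate 2 (1.09%, against 0.931%). Regions missing from KO replicate 2 alone or from WT replicate 1 alone numbered 0 here and made up 1.82% and 0.716% of all regions. A further 6 regions (6.52%, against 4.72%) were called in 1 KO and 1 WT list. Regions called in 1 list numbered 10 and made up 10.9% here against 13.4% of all regions. Of these, 8 were called in KO replicate 2 (8.7% of the 92, against 4.56% of all regions) and 2 in WT replicate 2 (2.17%, against 2.55%). Regions called only in KO replicate 1 or only in WT replicate 1 numbered 0 here and made up 1.92% and 4.34% of all regions.

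Regions that split by genotype were few. KO-only regions, with a peak in each KO list and in no WT list, were 2 of 92 (2.17%), at Ackr3 and Plxnd1, against 1.12% of all merged regions and 1.11% of those within 10 kb of a protein-coding gene. WT-only regions, defined the other way, were also 2 (2.17%), at Pdgfb and Plxnd1, against 3.04% and 2.68%. Leaving out a library loosened the rule: without KO replicate 1, 10 of 94 regions were KO-only (against 5.83% of all regions) and 2 were WT-only (against 4.99%). Without KO replicate 2, 2 of 84 were KO-only (against 3.21%) and 13 were WT-only (against 11.1%). Without WT replicate 1, 3 of 93 were KO-only (against 2.14%) and 5 were WT-only (against 5.9%), and without WT replicate 2, 2 of 90 were KO-only (against 1.89%) and 2 were WT-only (against 7.65%). The counts thus depended on which library was left out, and with all 4 libraries they were 2 regions in each direction. A KO-only region lay in the window of 4.41% of protein-coding genes, and a WT-only region in 9.47%. The KO regions were wide and the WT regions narrow: by the lower width percentile of their peaks, the Ackr3 and Plxnd1 regions ranked 27 and 37 among 1267 KO-only regions, and the Pdgfb and Plxnd1 regions ranked 2090 and 2467 among 3434 WT-only regions. In 45 KO-only regions of the genome (3.55%), those of Ackr3 and Plxnd1 among them, each peak was at least as wide as the median peak of its library. The same held for 29 WT-only regions (0.844%), which did not include those of Pdgfb and Plxnd1.

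Among the ligands, Cxcl12 (gene identifier 20315, chromosome 6, 117168535 to 117181368) had 5 regions. The region over its start site, 117168118 to 117169036, measured 919 and 624 bp in KO and 658 and 730 bp in WT, and the groups overlapped. A region 1051 bp upstream measured 613 and 629 bp in KO and 610 and 643 bp in WT. Inside the gene, 5303 bp from the start, the widths were 392 and 412 bp in KO and 437 and 484 bp in WT, with the KO widths below the WT widths (log2 difference -0.11, limma adjusted p = 0.939). One more region inside the gene was missing from KO replicate 1 and measured 316 bp in KO replicate 2 and 304 and 206 bp in WT. A peak of 424 bp beyond the end of the gene was listed in KO replicate 2 alone.

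Pdgfb (gene identifier 18591, chromosome 15, 79995865 to 80024614), which encodes the platelet-derived growth factor chain that recruits pericytes, had 17 regions, 9 of them in all lists. Its widest shared region, 80004387 to 80005569 inside the gene, measured 1183 and 952 bp in KO and 929 and 982 bp in WT. The regions at and beyond the high-coordinate end measured 445 and 476 bp in KO against 515 and 487 bp in WT, and 877 and 839 bp in KO against 833 and 818 bp in WT. These adjoining regions differed in opposite directions, each by less than 0.1 on the log2 scale. A region inside the gene, 80006234 to 80006473, was listed only in WT, with peaks of 240 and 217 bp near the narrowest width in any list, 201 bp. The nearest KO peaks ended or began 664 and 797 bp away. The 1 region missing from WT replicate 2 alone, 79986174 to 79986664, lay in the lncRNA gene Gm52191 and measured 307 and 230 bp in KO and 225 bp in WT replicate 1.

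Dkk2 (gene identifier 56811, chromosome 3, 132085266 to 132180304), which encodes a secreted modulator of Wnt signalling that binds LRP5 and LRP6, gave the largest width difference of the 60 shared regions. Its region at the start site, 132085219 to 132086012, held 269 and 336 bp of peak in KO and 794 and 679 bp in WT. Both KO values lay below both WT values. The KO peaks began 307 and 351 bp downstream of the start site, and the WT peaks began 73 and 71 bp upstream of it. WT replicate 1 listed 1 peak over the whole stretch, and WT replicate 2 listed a peak of 277 bp over the start site and another of 402 bp that began 297 bp downstream. A stretch of 277 bp, 132085221 to 132085497, therefore lay inside WT peaks of both replicates and outside every KO peak. Its part before the start site is printed because the genotypes differed there in coverage, in capitals since every base lay inside both WT peaks (chr3:132085221-132085291, plus strand).
Dkk2 upstream, in both WT peaks: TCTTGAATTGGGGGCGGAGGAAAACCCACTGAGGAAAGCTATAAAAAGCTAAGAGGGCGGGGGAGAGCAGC
The log2 width difference was -1.18 ± 0.13 (KO over WT, standard error, n = 2 each), at percentile 0.0511 of all 75395 shared regions, with a limma adjusted p of 0.537. Without WT replicate 1 the wide peak that joined the stretch was gone, and the remaining region differed by -0.31. The start site then lay in a peak of WT replicate 2 and of no KO library. Of 8 promoters here, 1, that of Dkk2, was touched by both WT lists and no KO list. Of all promoters, 0.408% were so touched (0.892% of those that both WT lists touched). The opposite was seen at 0 of 8 here and at 0.155% of all promoters (0.352% of those that both KO lists touched). These comparisons were chosen after the Dkk2 values were seen, so they cannot show an excess at these genes.

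The other regions of Dkk2 differed far less between the genotypes. The peak upstream of the start site measured 400 and 390 bp in KO and 421 and 427 bp in WT, and the peak that began 1676 bp downstream measured 491 and 545 bp in KO and 557 and 600 bp in WT. In both, the KO widths lay below the WT widths, by -0.03 and -0.10 on the normalised log2 scale. The region with the widest peaks on average, 132103025 to 132103736, measured 592 and 618 bp in KO and 705 and 576 bp in WT.

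**Figure D2:**
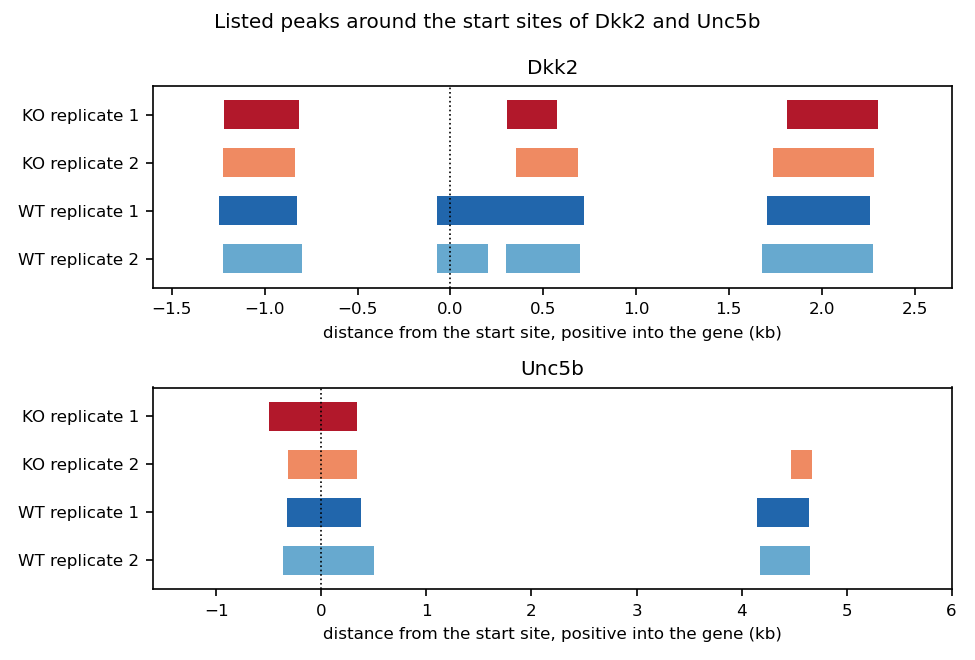
Listed peaks (bars, to scale) near the start sites of Dkk2 and Unc5b in the 4 libraries, by distance from the start site in kb, dotted line at 0. At Dkk2 the WT peaks begin 73 and 71 bp before the start site and the KO peaks 307 and 351 bp after it, while all 4 libraries cover the start site of Unc5b.

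Mgp (gene identifier 17313, chromosome 6, 136872435 to 136875823), which encodes an inhibitor of vascular calcification, had 1 region in its window. It lay at the high-coordinate end, 136875532 to 136876216, and measured 563 and 660 bp in KO and 633 and 654 bp in WT. The groups overlapped. Sema3g (gene identifier 218877, chromosome 14, 31217873 to 31230352), a class 3 semaphorin gene, had 6 regions. Its start-site region measured 532 and 503 bp in KO and 517 and 559 bp in WT. The widest region, 31205290 to 31208150, lay 9723 bp upstream in the neighbouring gene Nisch and measured 2453 and 2208 bp in KO and 2396 and 2359 bp in WT. Neither region separated the genotypes, and the 1 region of Sema3g that was not shared by all lists was called in KO replicate 2 and WT replicate 2.

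Among the receptors, Cxcr4 (gene identifier 12767, chromosome 1, 128588199 to 128592299) had 4 regions. The region over its start site, 128591926 to 128593561, held 1575 and 1236 bp of peak in KO and 1217 and 1272 bp in WT. KO replicate 1 listed it as 1 peak and the other libraries as separate peaks, and the groups overlapped. The widest region missing from KO replicate 1 alone, 128590889 to 128591846, lay next to it inside the gene, with 605 bp in KO replicate 2 and 958 and 568 bp in WT. The peak of KO replicate 1 at the start site ended 79 bp away from it.

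Ackr3 (gene identifier 12778, chromosome 1, 90203980 to 90215724) held the wider of the KO-only regions, which was also wider than both WT-only regions. The region 90202097 to 90202707, 1273 bp upstream of the start site and in no other gene, was listed with 542 and 601 bp in KO and had no peak in WT. The nearest WT peaks lay 437 and 432 bp away. The width percentiles of the KO peaks within their lists were 60.1 and 77.3. By base pairs, 539 bp of the Ackr3 window were covered by KO peaks of both replicates and by no WT peak, 12.0% of the bases that any list covered there, against 1.05% over the genome. This was the highest such share among the 10 genes, chosen here after its value was seen. Over all 10 genes, KO-only bases were 1246 bp (2.35%, against 1.05%) and WT-only bases 1596 bp (3.0%, against 3.28%). With a rule that counts a region as absent only where no peak lies within 500 bp, this region no longer counted as KO-only.

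Shared regions of Ackr3 differed in both directions. A region inside the gene, 90206748 to 90207461, measured 568 and 463 bp in KO and 701 and 696 bp in WT (log2 difference -0.41 ± 0.11 standard error, limma adjusted p = 0.709). Just beyond the end of the gene, at 90215887 to 90216273, the widths were 201 and 272 bp in KO and 387 and 290 bp in WT (log2 difference -0.42 ± 0.21, limma adjusted p = 0.905). Farther downstream, at 90224270 to 90224645, they were 295 and 376 bp in KO and 290 and 289 bp in WT (log2 difference 0.38 ± 0.12, limma adjusted p = 0.779). In these regions both KO widths lay on one side of both WT widths, and none passed the threshold of 0.05. The start-site region, 90203706 to 90204484, measured 775 and 504 bp in KO and 540 and 577 bp in WT, with the groups overlapping.

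**Figure D3:**
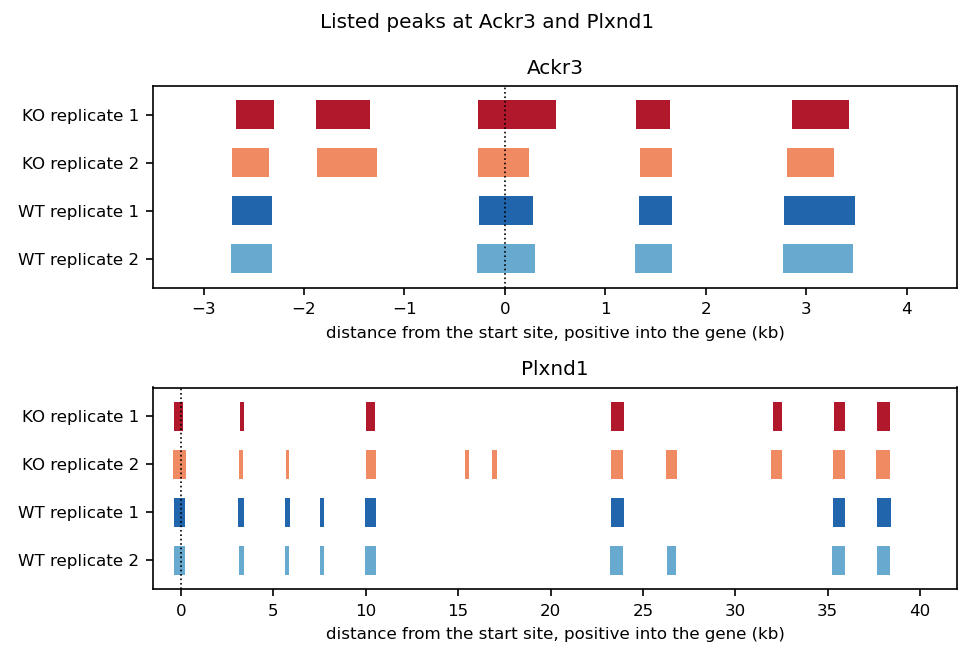
Listed peaks (bars, to scale) at Ackr3 and Plxnd1 in the 4 libraries, by distance from the start site in kb, dotted line at 0. The KO libraries alone have a peak 1273 bp before the Ackr3 start site and another 31911 bp into Plxnd1, and the WT libraries alone have a narrow peak 7513 bp into Plxnd1.

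Unc5b (gene identifier 107449, chromosome 10, 60762594 to 60831581), a netrin receptor gene of arterial and tip cells, had 18 regions. None of them was called in both lists of 1 genotype and in no list of the other. Its start-site region measured 840 and 659 bp in KO and 707 and 867 bp in WT. Its widest region, 60800394 to 60801906, measured 1349 and 1249 bp in KO and 1503 and 1393 bp in WT. The KO widths lay below the WT widths (log2 difference -0.13, limma adjusted p = 0.922). The same order held at 60778570 to 60778969 and at 60819188 to 60819512. The order was reversed at 60814312 to 60814793, with 482 and 471 bp in KO and 465 and 441 bp in WT. A region 4149 bp into the gene, 60826909 to 60827432, was missing from KO replicate 1, measured 201 bp in KO replicate 2 and measured 496 and 475 bp in WT. Both KO libraries thus had less there than either WT library, and 297 bp, 60827110 to 60827406, lay under WT peaks of both replicates and no KO peak. With lists shortened to equal length this region became WT-only. That cut keeps wide peaks, and 201 bp is the narrowest width in any list. The outcome was therefore fixed in advance and adds nothing to the difference. The regions called in 1 list at Unc5b, 3 in number, were all in KO replicate 2, at 237, 302 and 239 bp.

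Plxnd1 (gene identifier 67784, chromosome 6, 115954811 to 115995339), the receptor gene for semaphorin 3E, had 18 regions, 9 of them in all lists. A KO-only region lay 31911 bp into the gene, at 115962489 to 115963094, with 501 and 606 bp in KO and no WT peak within 2704 bp. Its 501 bp shared by the KO peaks had no WT peak. A WT-only region 7513 bp into the gene, 115987277 to 115987492, measured 206 and 216 bp in WT, close to the narrowest listed width, with the nearest KO peaks 2268 and 1645 bp away. The start-site region measured 465 and 667 bp in KO and 589 and 586 bp in WT. The shared region with the widest peaks on average, 115996062 to 115996970 upstream, measured 886 and 749 bp in KO and 902 and 861 bp in WT. Both overlapped between the genotypes, whereas a region 3102 bp into the gene measured 217 and 223 bp in KO and 301 and 279 bp in WT (log2 difference -0.19, limma adjusted p = 0.914).

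Bmx (gene identifier 12169, chromosome X, 164192842 to 164258193), a Tec family kinase gene expressed in arterial endothelium and endocardium, had 7 regions, 5 of them in all lists. Its widest region, over the start site, measured 913 and 886 bp in KO and 966 and 932 bp in WT, with the KO widths below the WT widths (log2 difference -0.06, limma adjusted p = 0.972). Inside the gene, 164233183 to 164234030 measured 625 and 764 bp in KO and 804 and 802 bp in WT, again lower in KO (log2 difference -0.18, limma adjusted p = 0.934). KO replicate 2, the library with the Xist peak, listed 6 peaks at Bmx, against 5 in KO replicate 1 and 5 and 6 in WT. The part of sex in these values was not tested.

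Over all 60 shared regions, 37 had a lower and 23 a higher normalised width in KO, with a median log2 difference of -0.03 against 0.01 over all 75395 shared regions. Among those 75395, a difference of -0.006 lay at percentile 45.0 and one of 0.001 at percentile 47.4. Between 45.0% and 47.4% of all shared regions were therefore lower in KO, and the higher share here was not tested. The limma test on quantile-normalised log2 width called 0 of the 60 after Benjamini-Hochberg adjustment and 0 of 75395 overall (0%). At an unadjusted p under 0.05 there were 3 of the 60, at Dkk2 and Ackr3, against 6.03% of all regions. All but the Dkk2 start-site region, 59 of 60, lay in the middle 95% of all shared regions. In listed widths, without normalisation, both KO lists were narrower than both WT lists at 24 of 60 regions (40%) against 27.1% of all shared regions, and wider at 3 (5%) against 7.37%.

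**Figure D4:**
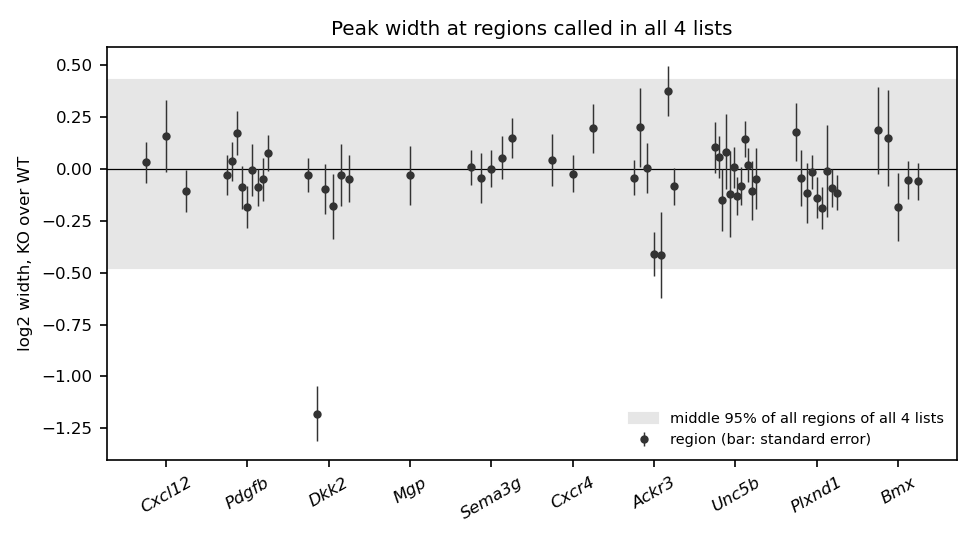
Log2 width difference, KO over WT, at each of the 60 regions called in all 4 lists (points; bars are standard errors of the limma fit; regions of a gene run by position). The grey band holds the middle 95% of all 75395 shared regions, and the Dkk2 start-site region at -1.18 is the 1 point outside it.

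Summed widths by gene differed more between the KO libraries than between the WT libraries at all of the 10 genes but Cxcr4 and Bmx. At Plxnd1 they were 5844 and 8125 bp in KO and 6872 and 7357 bp in WT, and at Unc5b 8719 and 9919 bp in KO and 10049 and 10015 bp in WT. Dkk2 had 2781 and 3126 bp in KO and 3763 and 3657 bp in WT, and Cxcr4 had 2786 and 3015 bp in KO and 3366 and 3105 bp in WT. At Dkk2, Cxcr4 and Unc5b both KO values lay below both WT values. Over the whole genome the peaks covered 46.6 and 47.8 Mb in KO and 51.1 and 50.5 Mb in WT, which is the same order. The share of all genes with this order was not computed, so it cannot be called particular to these genes. The sums at Ackr3 were 3676 and 3931 bp in KO and 3671 and 3639 bp in WT, with both KO values above both WT values. At Pdgfb they were 5950 and 6963 bp in KO and 7066 and 6819 bp in WT, with the groups overlapping.

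**Figure D5:**
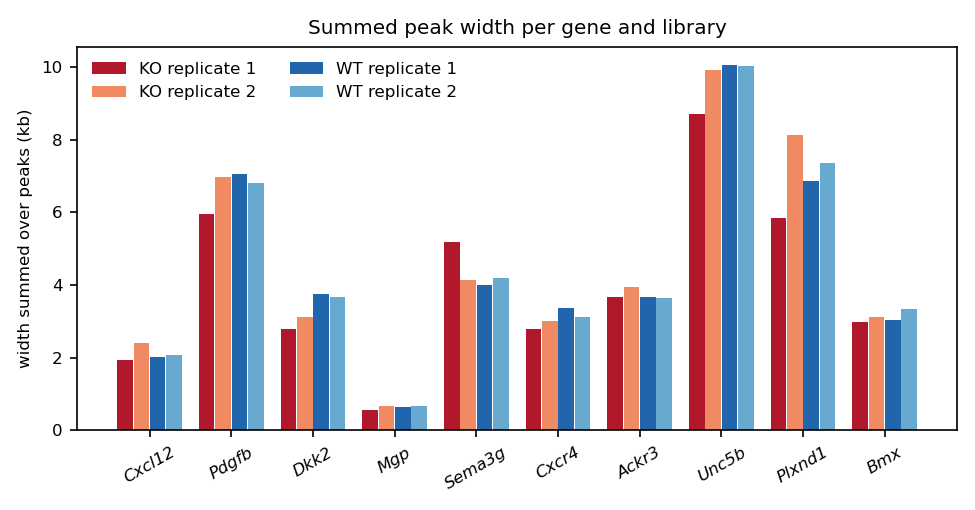
Summed width of the listed peaks in each gene and 10 kb on either side (bars, kb) in the KO and WT libraries. KO replicate 1 is the lowest library at every gene but Sema3g and Ackr3, and both KO bars are below both WT bars at Dkk2, Cxcr4 and Unc5b.

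Related genes were compared by the same counts. Of 41 relatives in chemokine, netrin, SLIT and semaphorin signalling, 496 regions included 7 KO-only regions (1.41%), at Cxcl1, Cxcl2, Gipc1, Nrp2, Plxnb2 and Sema6d, and 16 WT-only regions (3.23%), among them regions at Ackr4, Nrp1, Ntn1, Ntn4 and Plxna1. Nrp2, the neuropilin that binds class 3 semaphorins and VEGF-C, held 3 of the KO-only regions, and 1 lay in the windows of both Cxcl1 and Cxcl2. For 21 relatives of PDGF, Tec kinases, Dkk and Mgp, 141 regions included 5 KO-only regions (3.55%), at Btk, Dkk3, Dkk4, Kremen1 and Lrp5, and 3 WT-only regions (2.13%), at Btk, Lrp5 and Pdgfa. For 22 other arterial genes, 211 regions included 1 KO-only region (0.474%), at Jag1, and 4 WT-only regions (1.9%), at Efnb2, Nrp1 and Stmn2. The backgrounds were again 1.12% and 3.04%, and no difference between the lists was tested.

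Genes most alike in their calls were found by comparing, over the 15 possible combinations of lists, how many regions of each kind lay in the window. Ackr3 shared its exact counts with S100a3 (9 regions, a difference of 0), and Bmx did so with Aco1 and others, 6 genes in all. The nearest to Unc5b was Ppargc1b and the nearest to Pdgfb was Vdr, each differing by 2 regions. Plxnd1 differed by 4 regions from Atxn7 and the other genes tied with it, 4 genes in all. The counts of Sema3g, Cxcl12, Dkk2, Cxcr4 and Mgp were shared exactly by 12, 34, 52, 229 and 1884 other genes, and no single nearest gene was found for them.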

How the data were processed

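Peak lists were analysed for ATAC-seq libraries of sorted lung endothelial cells, 2 KO and 2 WT, with genotype and replicate number from the labels. Per the submitters' processing notes, cutadapt, Bowtie2 and Picard were used with mm10. The peak caller, its threshold, the handling of transposase offsets and read depth are not given in the sources used here. Each list gives position and width, per the file headers, with no score, so depth or threshold differences between libraries can change how many narrow peaks are listed. Some starts are listed as 0, on unplaced sequences, so starts may count from 0 and listed widths may be 1 bp too long. Positions are printed as deposited.

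Peaks off chromosomes 1 to 19, X and Y (92 and 134 in KO, 134 and 124 in WT) were left out. Genes and promoters came from RefSeq tables of GRCm38.p6, the mm10 assembly: all 10 symbols matched the gene table and 8 the promoter table. Exons and introns were not analysed here. Where several peaks of a list fell in a region, widths were summed.

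Library totals were compared by two-sided exact permutation tests, and widths by limma over all shared regions with Benjamini-Hochberg adjustment. P-values measure only the spread between these libraries. Joining and width tests were tested on simulated data, and the outcome is not given here. The lack of limma calls with 2 libraries per genotype therefore does not show that widths were equal. Every gene of the set was named, with regions by rule: all genotype-only regions, the widest and the start-site region, the 5 largest width differences, and the widest region missing from 1 library. The members and lists were chosen with earlier results of these data known, and the promoter and base-pair comparisons after seeing the values. Alternatives were the gene window, overlap, list length, absence rule, normalisation, replicate block and leaving out each library. Python 3.11.15, numpy 2.4.6, pandas 2.3.3, R 4.3.3 and limma 3.58.1 were used.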

Additional observations from a re-analysis of the deposited data

How the results depend on the processing

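KO-only regions at the genes numbered 2, with 1 for the gene spans alone and 1 where absence asked for no peak within 500 bp, and 2 to 10 without each library (10 without KO replicate 1). WT-only regions numbered 2, with 1 for lists of equal length and 1 for peaks at or over the median width, where the Unc5b region replaced those of Pdgfb and Plxnd1, and 2 to 13 without each library. Leaving out a library asks for 1 list fewer. The KO-only region of Plxnd1 held under all 8 alternatives tried for it and that of Ackr3 under 7 of 8. Most of these could not fail. Leaving out a library cannot remove a region that both lists of 1 genotype alone call. The cuts by list length and median width keep wide peaks, and the KO peaks of both regions were already at least as wide as the median. The peak difference of -2 turned to 1 with lists of equal length and ranged from -17 to 13 without each library, being 13 without KO replicate 1. The summed width difference of -1757 bp ranged from -4265 to 751 bp without each library, being 751 bp without KO replicate 1, and was -5195 bp for a window of 50 kb. The difference in genes with a start-site peak, 0, became -1 with peaks at or over the median width and -1 when a peak had to touch the promoter. In the first, Dkk2 kept a start-site peak in WT replicate 1 alone. Plxnd1 lost that of KO replicate 1, which measured 465 bp against a median of 467 bp. Dkk2 made the second. The log2 width difference of the Ackr3 start-site region, 0.20, turned to -0.041 without KO replicate 1 and was 0.45 without KO replicate 2.

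The labels did not say whether replicate numbers pair the libraries. Deviations of same-numbered libraries from their group means correlated at -0.0654 over 75395 regions. This value comes from peak widths alone and cannot show whether same-numbered libraries were prepared together. With the replicate block, limma called 0 of the 60 shared regions, as under every other setting, and the Dkk2 start-site region had an adjusted p of 0.668 (0.228 to 1 over all settings). Lists without scores or depth limit every statement of absence.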
